A study of Bos taurus with 3 samples.

Results

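The cells described here are the chemokine-high epithelial cells of the newborn calf rumen, that is, keratin-positive cells that carried many transcripts of CXCL2, CXCL3, GRO1 and CCL20 and few of KRTDAP. A barcode was kept when it held 500 to 4000 genes, at most 50000 unique molecular identifiers (UMIs, each standing for 1 captured transcript) and at most 40% of its UMIs in the 13 mitochondrial coding genes. A kept barcode was called epithelial when KRT5, KRT14 and KRT15, the keratins of the basal layers, together made up at least 10 UMIs per 10000 and when it held no UMI of PTPRC, PECAM1 or COL3A1. It was called chemokine-high when the 4 chemokine genes together reached at least 10 UMIs per 10000 with KRTDAP, a differentiation gene of keratinocytes, under 10 per 10000. The rule found 862 cells among 21884 epithelial cells, 26020 kept barcodes and 31228 deposited barcodes, and they were set against the 17096 epithelial cells with no UMI of any of the 4 genes. The remaining 3925 epithelial cells with a sum above 0 and under the limit entered neither class.

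The series measured single-cell transcriptomes of the rumen of 3 newborn calves, sampled 1 day after birth, with 1 library per calf. The paper names the Holstein breed for its adult cattle and gives no breed for the calves. No allele, transgene or treatment was named for any calf, and all 3 calves formed 1 group, so that every comparison was made between cell classes within the same animals. The tissue came from the ventral sac of the rumen after removal of the outer muscle, and its cells were released with EDTA, trypsin and collagenase, so the cells that survived this treatment are the ones that were counted. Libraries of adult cattle were not analysed here.

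CXCL2, CXCL3 and GRO1 are closely related CXC chemokines that attract neutrophils mainly through the receptor CXCR2, and CCL20 attracts CCR6-bearing lymphocytes and dendritic cells. In stratified epithelia such as the epidermis and the forestomach lining, keratinocytes make these ligands after exposure to microbes, interleukin 1, interleukin 17, tumour necrosis factor or injury, and transcription factors of the NF-kB and AP-1 families act on their promoters. NFKBIA and TNFAIP3 are induced by NF-kB and in turn restrain it.

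Deposited libraries held 7529 to 12043 barcodes and between 82263092 and 106145091 UMIs over 27270 genes. Barcode sequences were shared by 11 to 30 kept barcodes between pairs of libraries, and by 0 of the chemokine-high cells. Median depth of the chemokine-high cells was 9281 UMIs in calf 1, 6305 in calf 2 and 7415 in calf 3, against 10263.5, 6729 and 7921 in the comparison cells, so the chemokine-high cells were slightly shallower in every calf.

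Calf 1 gave 142 chemokine-high cells, calf 2 gave 277 and calf 3 gave 443. They made up 3.06% of the epithelial cells of calf 1 (95% exact Clopper-Pearson interval 2.59 to 3.60), 3.04% in calf 2 (2.69 to 3.41) and 5.45% in calf 3 (4.97 to 5.97), with a mean of 3.85% ± 1.39 (SD, n = 3 calves). The share in calf 3 lay outside the intervals of the other calves, whose shares overlapped, and the intervals cover counting error only. The limit cut through a continuous range, for 461 cells (53.5%) had a sum under 20 per 10000 and 75 lay between 10 and 11, while the median was 18.8 and 22 cells reached 100 or more. At a limit of 20 the mean share was 1.73%, and at a limit of 5 it was 7.16%.

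Markers of other cell types were examined first, because a barcode with much RNA of another cell can pass the keratin limit. Among the 862 cells, 48 (2 in calf 1, 19 in calf 2 and 27 in calf 3) carried at least 2 endothelial, 3 immune or 4 fibroblast and smooth muscle markers, and their median depth was 2487.5 UMIs. Their keratin sum had a median of 10.9 per 10000 in calf 1, 29.5 in calf 2 and 16.5 in calf 3, against 143, 129 and 146 over all chemokine-high cells. In the comparison class 176 of 17096 barcodes met the same limits. Summed over 11 endothelial markers, the chemokine-high cells held 0.446, 1.66 and 0.770 UMIs per 10000 in calves 1 to 3 against 0.0795, 0.162 and 0.112 in the comparison cells. With the marked barcodes left out, these sums were 0.0913, 0.0860 and 0.0843 against 0.0675, 0.0896 and 0.0864, higher in calf 1 and slightly lower in calves 2 and 3. Most results below are nevertheless given for the 862 cells, the set that the rule chose. Part of them are also given for the 814 cells without such markers (140, 258 and 416) against 16920 comparison cells. Where only the 862 cells are given, the call can differ in the second set. This second set was defined after the data had been seen.

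Immune markers summed to 0.446, 0.635 and 0.835 per 10000 in the 862 cells against 0.549, 0.365 and 0.601 in the comparison cells, and to 0.449, 0.484 and 0.389 against 0.546, 0.342 and 0.500 without the marked barcodes. The fibroblast and smooth muscle sum was higher in the chemokine-high cells of each calf, at 9.20, 7.45 and 5.08 against 3.76, 3.71 and 2.64. Nearly all of it was DCN, the proteoglycan decorin, at 8.51, 6.76 and 4.17 per 10000 against 3.46, 3.42 and 2.25, and the COL3A1 level was 0 by the rule. DCN was higher by 1.05 ± 0.09 on the log2 scale (log2 difference ± SE) with all cells and by 1.12 ± 0.08 without the marked barcodes. Here and below, the SE leans on a spread shared among genes and does not show how far the 3 calves differ. Barcodes with top doublet scores made up 0%, 6.86% and 8.13% of the chemokine-high cells against 3.85%, 9.22% and 7.49% of the comparison cells, and were the larger share only in calf 3.

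CXCL3 supplied most of the chemokine UMIs as counted. These 4 genes chose the cells, so their levels describe the class and were not tested against the comparison cells, which hold 0 UMIs of each. Levels are given per 10000 UMIs after the cells of a calf had been added up, without a length correction, since the assay reads 1 tag at the 3′ end of each transcript. CXCL3 stood at 13.1 in calf 1, 16 in calf 2 and 14.0 in calf 3 (mean 14.4 ± 1.49, SD). GRO1 stood at 4.64, 7.31 and 5.71 (5.89 ± 1.34), below CXCL3 in every calf with no overlap. CXCL2 stood at 0.892, 2.35 and 2.41 (1.88 ± 0.860) and CCL20 at 0.900, 3.26 and 1.75 (1.97 ± 1.2). CXCL2 and CCL20 overlapped each other, and calf 1 was the lowest for all 4 genes. CXCL2, CXCL3 and GRO1 are closely related, and how well their reads could be told apart was not examined, so the order among these 3 genes is uncertain.

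By cell rather than by level, CXCL3 was detected in 91.6% of the 862 cells, GRO1 in 67.6%, CXCL2 in 27.8% and CCL20 in 15.8%. CXCL3 was the most abundant of the 4 genes in 590 cells, GRO1 in 174, CCL20 in 55 and CXCL2 in 43. Most cells carried more than 1 of the genes: 252 carried 1 gene, 378 carried 2, 187 carried 3 and 45 carried all 4. The cells were few but held most of the epithelial chemokine transcripts, as the limit demands: 55.2%, 64.9% and 64.1% of the epithelial UMIs of the 4 genes in calves 1 to 3. Of these UMIs in all kept barcodes they held 46.6%, 32.4% and 33.6%.

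Endothelial cells were another source, with 426 of the 5533 UMIs of the 4 genes in the kept barcodes of calf 1, 5001 of 17142 in calf 2 and 6986 of 25317 in calf 3. Among kept barcodes under the keratin limit with UMIs of only 1 of the 3 class genes, the 46, 323 and 509 PECAM1-positive cells of calves 1 to 3 had CXCL3 at 14.8, 25.5 and 21.1 per 10000 and GRO1 at 2.86, 4.37 and 2.48. Endothelial CXCL3 was thus in the range of the chemokine-high epithelial cells or above it. CCL20 was not part of the endothelial set, at 0, 1 and 1 UMIs in the 3 calves, whereas the chemokine-high epithelial cells without the marked barcodes held 119, 627 and 600. After each cell was thinned to 2000 UMIs, leaving out shallower cells, CCL20 was seen in 4.51% of these epithelial cells in calf 1 (interval 1.67 to 9.56), 14.6% in calf 2 (10.5 to 19.5) and 12.5% in calf 3 (9.45 to 16.1). In the thinned endothelial cells it was seen in none, with upper bounds of 8.04%, 1.19% and 0.753%. CCL20 helped to choose the chemokine-high cells and not the endothelial cells, so these shares are a description and no test between classes. Over all epithelial cells without the marked barcodes, thinned CCL20 was seen in 0.425%, 0.728% and 1.25% in calves 1 to 3. Unthinned, 15.8% of all chemokine-high cells had a CCL20 UMI.

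PTPRC-positive immune cells had another makeup. GRO1 made up 97.0%, 64.2% and 57.4% of their UMIs of the 4 genes in calves 1 to 3, with 5, 26 and 388 cells. The share of CCL20 was 0% in calves 1 and 2 and 0.413% in calf 3. In chemokine-high epithelial cells without the marked barcodes CCL20 took 8.65% and GRO1 23.2% of these UMIs over all calves.

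**Figure D1:**
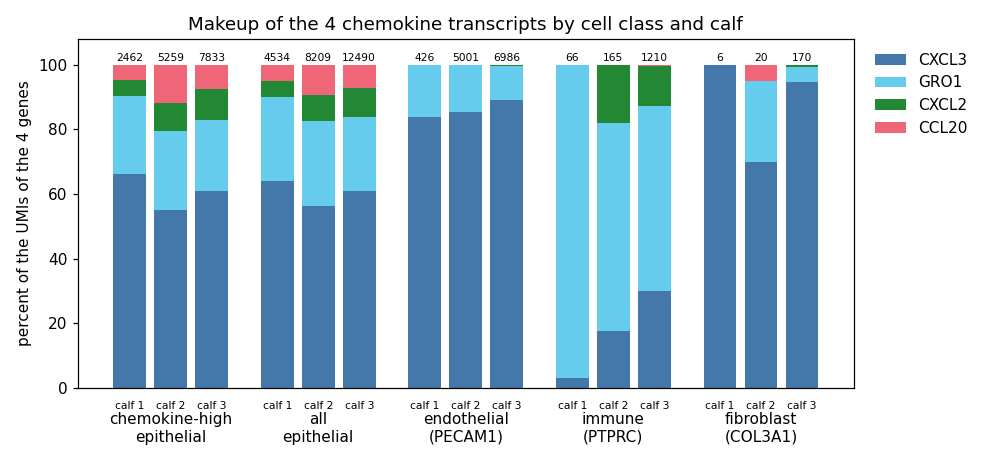
Percent of the UMIs of the 4 chemokine genes that each gene supplied, by cell class and calf, with the number of UMIs above each bar and barcodes with markers of other cell types left out of the epithelial classes. CXCL3 was the largest share in the epithelial and endothelial bars, GRO1 in the immune bars, and CCL20 formed a visible share of the epithelial bars and of 1 fibroblast bar that rests on 20 UMIs.

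Transcripts of the matching receptors were rare in the barcodes counted. CXCR1 and CXCR2, the neutrophil receptors of the 3 CXC ligands, had 0 UMIs in all PTPRC-positive cells counted. CCR6, the receptor of CCL20, had 32 UMIs among the 388 immune cells of calf 3 and 0 among the 31 of the other calves. ACKR1, an endothelial receptor that binds chemokines without signalling, stood at 0.872, 2.39 and 0.566 per 10000 in the PECAM1-positive cells. The receptor levels are a description, with no test.

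Whether the CXC ligands and CCL20 go together was examined with each left out of the choice. The genes of the rule had been grouped with earlier results of these data known. The p-values of this comparison and of its reverse are therefore not independent evidence that they go together. Cells chosen by CXCL2, CXCL3 and GRO1 alone (138, 264 and 410) had CCL20 at 0.562, 2.61 and 1.12 per 10000, against 0.0208, 0.0165 and 0.0341 in the epithelial cells with none of the 3 genes. Each calf was higher in the chosen cells and the classes did not overlap. The log2 difference was 5.85 ± 0.14 with an adjusted p of 3.06e-118 in edgeR's quasi-likelihood test (8.88% of the genes tested were higher in this fit). That p rests on a spread shared among genes, and CCL20 varied more between calves than most: the adjusted p was 0.0852 with a robust prior, 0.0580 with the bias-adjusted dispersion, 0.0642 without the calf as a block, and 1.31e-13 in DESeq2. The difference was at least 4.60 in all fits run, and the call was lost in 3 of them.

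In the opposite direction the call held in every fit run. Only 5, 21 and 29 cells reached 10 per 10000 with CCL20 alone, set against the epithelial cells with no CCL20 UMI. GRO1 stood at 9.15, 11 and 11.7 per 10000 in them against 0.212, 0.271 and 0.374, a log2 difference of 4.99 ± 0.25. CXCL2 stood at 2.5, 5.39 and 6.19 against 0.0399, 0.0710 and 0.139, a difference of 5.68 ± 0.27, and CXCL3 at 11.1, 17.0 and 10.0 against 0.552, 0.619 and 1.00, a difference of 3.90 ± 0.24. The classes did not overlap for any of the 3 genes. The edgeR adjusted p was 8.96e-83 for GRO1, 2.34e-93 for CXCL2 and 5.15e-55 for CXCL3, and 0.431% of the genes tested were higher in this fit. One marked barcode gave 192 of the GRO1 UMIs of calf 3, and without the marked barcodes the differences were 4.37 for GRO1, 5.13 for CXCL2 and 3.95 for CXCL3.

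Across all genes, UMIs were summed per calf and class and fitted in edgeR by quasi-likelihood, each calf being a block, with Benjamini-Hochberg adjustment. The 11 genes of the rule were left out. Of 12233 genes tested, 2194 (17.9%) passed an adjusted p of 0.05, with 922 (7.54%) higher and 1272 (10.4%) lower in the chemokine-high cells. The levels of the 3 calves did not overlap between classes for 702 higher (5.74%) and 748 lower genes (6.11%). Without the marked barcodes 2025 of 12099 genes passed (16.7%), 941 higher (7.78%) and 1084 lower (8.96%), and the levels did not overlap for 551 higher (4.55%) and 779 lower genes (6.44%). The median log2 difference of all genes tested was -0.02, and 0.01 without the marked barcodes. Each summed library holds cells of 1 animal. With the calf as a block, the p-values measure how the class difference varies among the 3 calves, and not the spread of levels between calves. They lean on the spread shared among genes, since 3 pairs leave few degrees of freedom for any single gene. DESeq2 called 1054 genes, and without the calf as a block edgeR called 0, with 936 at an unadjusted p under 0.05.

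The NF-kB feedback and target genes were higher as far as they passed. Of 37 tested, 19 were higher and 0 lower (7.54% and 10.4% over all genes), with a median log2 difference of 0.56. Without the marked barcodes 18 of 36 were higher (7.78% over all genes) and 0 lower, with a median of 0.48. CD40 passed only with all cells, and BIRC2 only without the marked barcodes. TNFAIP3, which encodes the deubiquitinase A20 that shuts off NF-kB signalling, stood at 0.272, 0.359 and 1.09 per 10000 in calves 1 to 3 against 0.0300, 0.0612 and 0.123 in the comparison cells. Its log2 difference was 2.97 ± 0.14 (adjusted p = 2.64e-32, edgeR). NFKBIA, the inhibitor that holds NF-kB in the cytoplasm, stood at 3.92, 8.89 and 8.70 against 1.04, 2.44 and 2.98, a difference of 1.76 ± 0.09 (adjusted p = 1.47e-30, edgeR). For both genes calf 1 was the lowest in each class, and the classes did not overlap.

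IRF1, a transcription factor of interferon and NF-kB responses, stood at 0.817, 1.63 and 1.82 against 0.127, 0.509 and 0.380, a difference of 2.13 ± 0.10. IER3, an early response gene that guards against cell death, stood at 22.7, 15.7 and 16.9 against 5.69, 6.06 and 4.48, a difference of 1.76 ± 0.09. Neither overlapped between classes, and IER3 was the most abundant of the genes of this list that passed. Among genes of lower level, CD83 (log2 difference 2.34), the adhesion molecule ICAM1 (1.85) and the survival gene BCL2A1 (2.80) were higher too, although BCL2A1 held 0 UMIs in the chemokine-high cells of calf 1 and was not tested without the marked barcodes or without calf 3. The atypical inhibitor NFKBIZ (1.11), BCL3 (1.47) and the non-canonical subunit RELB (1.46) were also higher. CD44, the member with the highest level that did not pass, stood at 4.05, 5.18 and 4.70 against 3.70, 5.16 and 4.55.

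**Figure D2:**
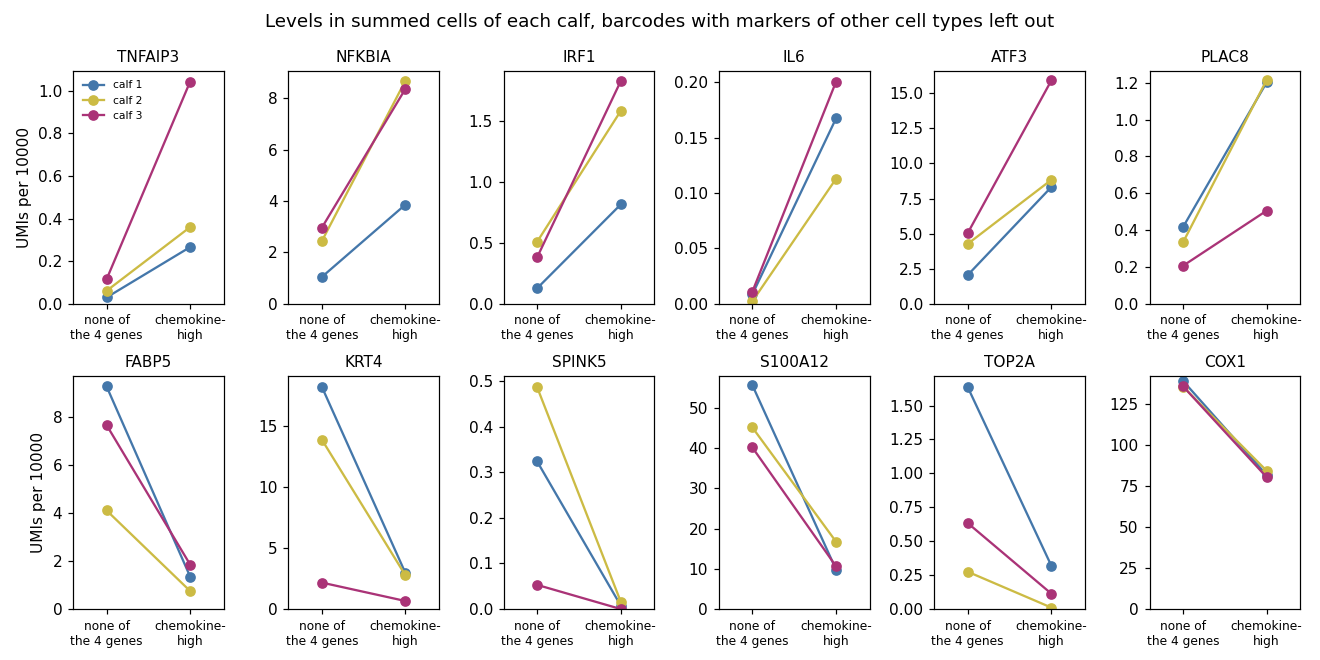
Levels of 12 genes in UMIs per 10000 of the summed cells of each calf, in epithelial cells with none of the 4 chemokine genes (left point) and in chemokine-high cells (right point), each line joining the classes of 1 calf, with barcodes bearing markers of other cell types left out. The 6 genes of the upper row were higher and the 6 genes of the lower row lower in all 3 calves.

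Among cytokines made by epithelia, 10 of the 29 listed genes had enough UMIs to be tested. Of these, 6 were higher and 2 lower, beside 7.54% and 10.4% over all genes tested. IL6 stood at 0.166, 0.109 and 0.205 per 10000 against 0.00853, 0.00227 and 0.0109, a log2 difference of 4.55 ± 0.32 (adjusted p = 4.58e-21, edgeR). IL1A, an alarmin stored in keratinocytes, stood at 0.121, 0.0468 and 0.146 against 0.00634, 0.00384 and 0.0190, a difference of 3.43 ± 0.35. Neither gene overlapped between classes, and both differences remained without the marked barcodes, at 4.57 and 3.51. TNF was higher by 2.82 ± 0.42 and by 2.12 ± 0.48 without them, and its call was lost without calf 3. TNFSF10, the death ligand TRAIL, was higher by 2.84 ± 0.34, yet by 0.94 ± 0.56 (adjusted p = 0.290, edgeR) without the marked barcodes. IL18 was lower by 0.57 on the log2 scale, a call that DESeq2 did not give (adjusted p = 0.105). IL1RN, the secreted antagonist of the interleukin 1 receptor, was lower with a log2 difference of -1.04 ± 0.36, and of -2.52 ± 0.48 without the marked barcodes. With all cells the IL1RN call was lost in DESeq2 (adjusted p = 0.262) and without calf 2. CSF2 had 0 UMIs in the chemokine-high cells, and IL1B had 0, 6 and 59 in calves 1 to 3 and was not tested.

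Other chemokine ligands were higher in 8 of 13 tested and lower in 0 (7.54% and 10.4% over all genes), with a median log2 difference of 1.62. CXCL5, another ligand of CXCR2, stood at 0.113, 0.619 and 0.0253 per 10000 against 0.00902, 0.0302 and 0.000969, a difference of 4.17 ± 0.29 that was 4.18 without the marked barcodes. It was higher in each calf, but the level of calf 3 in the chemokine-high cells lay below that of calf 2 in the comparison cells. CXCL10, a ligand induced by interferon, stood at 0.00756, 0.0468 and 0.253 against 0.000975, 0.000698 and 0.0149, a difference of 4.33 ± 0.42. CCL2, which attracts monocytes, was higher by 3.02 ± 0.38 with no overlap between classes, and the membrane-bound CX3CL1 by 0.70 ± 0.11.

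CXCL8 and CCL14 rested on the marked barcodes. CXCL8, the best known neutrophil chemokine, stood at 0, 0.0833 and 0.680 per 10000 against 0.000488, 0.00384 and 0.00601, with 258 UMIs in the chemokine-high cells and none of them in calf 1, and it was not tested without calf 3. Without the marked barcodes 9 UMIs were left, and the log2 difference went from 5.97 to 2.02 ± 0.71 (adjusted p = 0.0343, edgeR), a call lost without calf 1 and without calf 2 and not tested without calf 3. CXCL8 in the PTPRC-positive immune cells stood at 5.93 ± 2.33 (mean ± SD, n = 3). CCL14 went from 3.98 to 0.69 ± 0.75, which did not pass. With the marked barcodes left out the list had 7 of 12 higher and a median of 1.12.

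**Figure D3:**
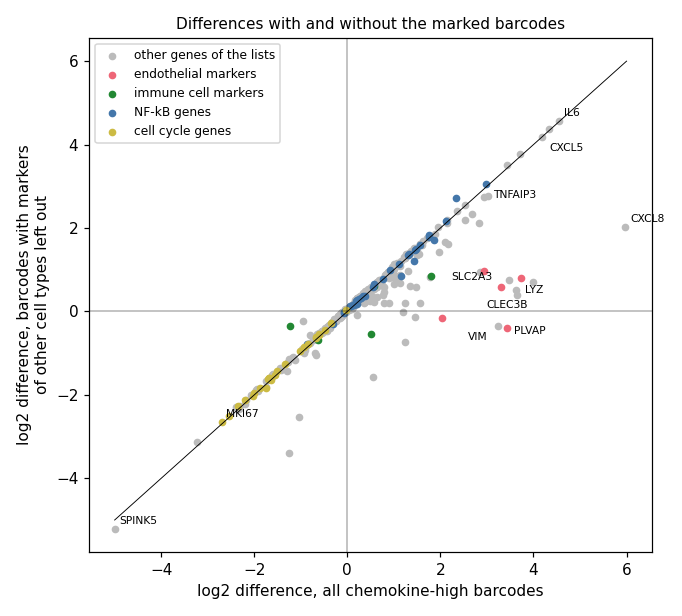
Log2 difference of the genes of the lists with all chemokine-high barcodes (horizontal axis) and with the barcodes that carry markers of other cell types left out (vertical axis), the diagonal marking equal values. NF-kB and cell cycle genes lay along the diagonal, whereas endothelial markers, VIM, CLEC3B, LYZ, SLC2A3 and CXCL8 fell below it.

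Genes along the sensing pathway mostly did not pass. Of 32 receptors and adaptors of interleukin 1, tumour necrosis factor, interleukin 17, interleukin 22 and Toll-like receptor signalling, 5 were higher and 3 lower with either set of cells, with a median log2 difference of 0.16. Over all genes tested 7.54% were higher and 10.4% lower, so the lower calls were near the share of all genes. IL1R2, the decoy receptor that binds interleukin 1 without signalling, stood at 0.582, 1.07 and 1.63 per 10000 against 1.50, 2.32 and 3.48, a difference of -1.17 ± 0.09 (adjusted p = 7.24e-19, edgeR). It was lower in each calf although the ranges of the classes overlapped. CD14, the lipopolysaccharide co-receptor, stood at 0.280, 0.198 and 0.332 against 0.159, 0.0474 and 0.10, a difference of 1.54 ± 0.16 with no overlap. TLR2, a receptor of bacterial lipoproteins, was higher by 2.94 ± 0.45 but in 2 of 3 calves, with 0.00756 against 0.00780 in calf 1. The signalling adaptor IRAK2 (1.49) and the soluble decoy TNFRSF6B (0.96) were also higher, and the IRAK2 call was lost without calf 2. TNFRSF1A, the member with the highest level that did not pass, stood at 0.915, 0.953 and 0.770 against 0.860, 0.909 and 0.763.

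Host defence and acute phase genes went both ways, with 5 of 16 tested higher and 5 lower (7.54% and 10.4% over all genes). The calgranulin S100A8, an antimicrobial protein of squamous epithelium and neutrophils, stood at 1.13, 1.87 and 0.835 per 10000 against 4.09, 5.06 and 3.31, a log2 difference of -1.75 ± 0.09 (adjusted p = 3.54e-28, edgeR). S100A12 stood at 9.76, 17.0 and 11.1 against 55.6, 45.3 and 40.3, a difference of -1.93 ± 0.10. Neither overlapped between classes. The S100A12 call was lost with a robust prior when the marked barcodes were left out (adjusted p = 0.0996, edgeR). S100A9, the partner of S100A8, stood at 1.87, 2.25 and 1.4 against 2.02, 2.5 and 0.978 and did not pass, but it was higher by 0.39 (adjusted p = 0.000551, edgeR) when the comparison cells were held to the KRTDAP limit. S100A7 had a difference of -2.19 that DESeq2 (adjusted p = 0.0709) and the robust prior (0.219) did not call. SAA3, an acute phase protein of epithelia, stood at 0.0832, 0.0625 and 0.0450 against 0.00341, 0.00680 and 0.00368, a difference of 3.70 ± 0.43 without overlap. LYZ was higher by 3.62 ± 0.39 with all cells and by 0.52 ± 0.74, which did not pass, without the marked barcodes. LTF had 0 UMIs in the chemokine-high cells.

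Immediate-early genes, which are transcribed within minutes of a stimulus and also respond to tissue dissociation, were listed together with heat-shock genes. This joint list had the most members higher. Of 47 tested, 33 were higher and 5 lower, with a median log2 difference of 0.81. Over all genes tested 7.54% were higher and 10.4% lower, so the lower calls were near the share of all genes. ZFP36, which destabilises cytokine messenger RNAs, stood at 4.30, 4.51 and 7.55 per 10000 against 1.53, 2.06 and 2.64, a difference of 1.38 ± 0.09 (adjusted p = 6.15e-24, edgeR). The AP-1 subunits FOS, at 14.1, 10.9 and 14.7 against 4.87, 6.05 and 6.86, and JUN, at 32.7, 42.1 and 52.9 against 15.5, 27.7 and 31.0, were higher by 1.16 ± 0.09 and 0.81 ± 0.09. None of the 3 genes overlapped between classes. ATF3, a stress-induced repressor, stood at 8.29, 8.68 and 15.7 against 2.04, 4.26 and 5.03, and its difference of 1.56 ± 0.10 lost its call with a robust prior (adjusted p = 0.0858, edgeR). The 5 lower genes were the chaperones HSPA1A, HSPD1, HSPE1 and HSPH1 and the transcription factor KLF5, with HSPA1A at 2.69, 6.44 and 11.5 against 4.51, 8.28 and 16.7 (log2 difference -0.54 ± 0.09). DESeq2 did not call HSPH1 (adjusted p = 0.325) or KLF5 (0.239), and the HSPD1 call was lost without calf 3. The HSPH1 call was also lost without the marked barcodes. Other chaperones went the other way, with DNAJA1 higher with either set of cells and DNAJB1 higher only without the marked barcodes. HSP90AA1, at 13.6, 13.2 and 20.8 against 13.5, 11.7 and 20.2, did not pass.

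Genes of growth factor signalling and the wound edge were higher in 17 of 30 tested and lower in 1 (7.54% and 10.4% over all genes). Without the marked barcodes 13 were higher and 1 lower (7.78% and 8.96% over all genes). AREG, an EGF receptor ligand released in wound repair, stood at 0.855, 0.151 and 1.03 per 10000 against 0.329, 0.0851 and 0.261, a log2 difference of 1.61 ± 0.12 (adjusted p = 2.76e-20, edgeR). HBEGF, a second such ligand, stood at 0.439, 0.177 and 0.649 against 0.20, 0.0884 and 0.192, a difference of 1.43 ± 0.13. Both were higher in each calf, with calf 2 the lowest in each class, and the ranges of the classes overlapped. PHLDA1 (1.94), PLAT (2.68) and STC1 (2.17) were higher as well, and ITGA5, PLAU and PLAUR passed only with the marked barcodes included. KRT6A, a keratin of activated epidermis, had a difference of -1.43 that neither DESeq2 (adjusted p = 0.166) nor the robust prior (0.286) called. LAMA3, at 0.635, 0.432 and 1.48 against 0.538, 0.425 and 1.27, did not pass.

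In the gene order of the reference annotation, an assembly other than the one counted, CXCL8, CXCL5, CXCL2, CXCL3, GRO1, MTHFD2L, EPGN, EREG, AREG and BTC lie in this order, with LOC534181 between CXCL8 and CXCL5 and PPBP and PF4 between CXCL5 and CXCL2, 3 genes that had no match by symbol in the count tables. CXCL5 and AREG were higher, as given above. MTHFD2L, which lies between the chemokines and the EGF receptor ligands, had a log2 difference of 0.48 (adjusted p = 0.453, edgeR), and BTC at the far end of 0.21 (0.803). EREG was called with all cells at 2.53 (0.0149) on 8 UMIs and was not called without the marked barcodes (2.18, 0.0793). EPGN had 0 UMIs in the chemokine-high cells.

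Interferon response and antigen presentation genes were higher in 20 of 31 tested and lower in 0 (7.54% and 10.4% over all genes). Without the marked barcodes 13 of 29 were higher and 0 lower (7.78% and 8.96% over all genes). The response was unequal between calves. ISG15, an early interferon-induced gene, stood at 0.00756, 0.713 and 3.24 per 10000 against 0.0163, 0.319 and 1.41, so that it was higher in calves 2 and 3 and near 0 in both classes of calf 1. Its log2 difference of 1.14 ± 0.11 was called by edgeR and not by DESeq2 (adjusted p = 0.545). IFI6 stood at 0, 0.635 and 2.91 against 0.000244, 0.217 and 1.58, a difference of 1.10 ± 0.11, and 0.81 ± 0.11 without the marked barcodes. B2M, the light chain of class I molecules, was higher in each calf at 2.48, 5.85 and 20.3 against 1.57, 3.40 and 17.5, a difference of 0.53 ± 0.09. The class II gene BOLA-DRA passed at 1.57 ± 0.21 with all cells and not at 0.19 ± 0.34 without the marked barcodes. DESeq2 called 9 genes of this list higher.

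Cell cycle genes were lower nearly throughout. Of 25 tested, 23 were lower and 0 higher with either set of cells, beside 10.4% lower and 7.54% higher over all genes. The median log2 difference was -1.56, and DESeq2 called 22 lower. TOP2A, the topoisomerase of dividing cells, stood at 0.318, 0.0156 and 0.112 per 10000 against 1.64, 0.273 and 0.640, a difference of -2.55 ± 0.14 (adjusted p = 1.04e-26, edgeR). MKI67, the standard proliferation marker, stood at 0.106, 0.00521 and 0.0759 against 0.710, 0.150 and 0.421, a difference of -2.70 ± 0.18 without overlap between classes. CENPF, a kinetochore protein, stood at 0.265, 0.0677 and 0.267 against 2.13, 0.575 and 0.881, a difference of -2.34 ± 0.13. Calf 1 had the highest level of all 3 genes in the comparison cells and calf 2 the lowest. The S phase gene PCNA was lower by 0.49 on the log2 scale, whereas TYMS did not pass, at 0.779, 0.234 and 0.526 against 0.811, 0.204 and 0.568.

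Suprabasal and cornification genes were lower in 11 of 22 tested and higher in 0 (10.4% and 7.54% over all genes), with a median log2 difference of -1.37. The rule itself capped KRTDAP, which belongs to the same programme, in the chemokine-high cells and not in the comparison cells. When the comparison cells were held to the same KRTDAP limit, 2079 genes were called and the 85 genes named by rule that had passed kept their calls. FABP5, the fatty acid carrier of keratinocytes, stood at 1.35, 0.874 and 1.86 per 10000 against 9.25, 4.12 and 7.71, a difference of -2.33 ± 0.10 (adjusted p = 8.96e-35, edgeR). SPINK5, a protease inhibitor of the upper layers, stood at 0.00756, 0.0208 and 0 against 0.323, 0.492 and 0.0533, a difference of -4.99 ± 0.33. Neither overlapped between classes. KRT4, a keratin of suprabasal layers in moist squamous epithelium, stood at 2.92, 3.00 and 0.677 against 18.2, 14.0 and 2.19, a difference of -2.21 ± 0.10. A2ML1 had a difference of -3.24 ± 0.35. KRT10, at 0.371, 0.323 and 0.284 against 0.351, 0.339 and 0.290, did not pass.

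Basal layer genes were lower where they passed. Of 20 hemidesmosome and basal genes, 9 were lower and 0 higher (10.4% and 7.54% over all genes), with a median of -0.17. Without the marked barcodes 7 were lower (8.96% over all genes). COL17A1, the transmembrane collagen of hemidesmosomes, stood at 13.1, 11.5 and 9.82 per 10000 against 17.1, 15.5 and 12.9, a difference of -0.40 ± 0.09. IGFBP3 stood at 1.08, 3.25 and 0.748 against 2.95, 7.71 and 1.23, a difference of -1.14 ± 0.10. Both were lower in each calf with overlapping ranges. BCAM, at 3.62, 4.07 and 3.39 against 3.66, 5.04 and 3.68, did not pass. The keratin sum used by the rule had medians of 143, 129 and 146 per 10000 in the chemokine-high cells against 180, 173 and 154, which is a description only.

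KRT8 and KRT18, a keratin pair of simple epithelia, were higher. KRT8 stood at 0.877, 0.713 and 0.371 per 10000 against 0.249, 0.251 and 0.180, a log2 difference of 1.44 ± 0.11 (adjusted p = 7.84e-19, edgeR) with no overlap. Its partner KRT18 stood at 0.749, 0.911 and 0.264 against 0.226, 0.387 and 0.126, a difference of 1.32 ± 0.11. KRT19 and KRT7, also found in simple epithelia and in no list, were higher by 0.70 ± 0.10 and 0.53 ± 0.09, with overlapping ranges. PLAC8 stood at 1.19, 1.19 and 0.509 against 0.414, 0.333 and 0.208, a difference of 1.56 ± 0.10, and the circadian and stress regulator BHLHE40 at 1.80, 1.13 and 1.77 against 0.605, 0.497 and 0.582, a difference of 1.47 ± 0.09. In both genes the classes did not overlap. The histone gene HIST1H2AC was higher by 1.70 ± 0.09. TIPARP, a target of the aryl hydrocarbon receptor, was higher by 1.32 ± 0.09.

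Some of the largest differences belonged to the marked barcodes. VIM, the intermediate filament of mesenchymal and endothelial cells, stood at 0.310, 1.09 and 0.981 per 10000 against 0.0256, 0.121 and 0.105 with all cells, a log2 difference of 3.24 ± 0.12. Without the marked barcodes it stood at 0.00761, 0.0484 and 0.0494 against 0.0157, 0.0680 and 0.0595, a difference of -0.35 ± 0.32 that did not pass. CLEC3B went from 3.64 ± 0.14 to 0.40 ± 0.39, and the glucose transporter SLC2A3 from 3.48 ± 0.36 to 0.75 ± 0.67. C2CD4B kept its call at 1.43 ± 0.15 after 1.96 ± 0.13, and SPARC, a matrix protein, at 0.83 ± 0.15 after 1.78 ± 0.11. All 9 endothelial markers tested were higher with all cells, and 0 of 5 without the marked barcodes, which were chosen by those same markers. Of the immune markers 5 of 9 were higher with all cells and 1 of 5 without (7.54% and 7.78% over all genes).

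Further lists covered metabolism and stress. Of 23 glycolysis and hypoxia genes 11 were lower and 1, SLC2A3, was higher (10.4% and 7.54% over all genes). The median log2 difference was -0.25. Without the marked barcodes 11 of 24 were lower, and the 1 higher gene was PFKFB3 and not SLC2A3. The glycolytic enzyme ENO1 stood at 2.31, 1.02 and 1.82 per 10000 against 4.38, 2.32 and 3.07, a difference of -0.94 ± 0.09. Of the 13 mitochondrial coding genes 11 were lower and 0 higher (10.4% and 7.54% over all genes), with a median of -0.41. COX1, a subunit of cytochrome c oxidase, stood at 81.7, 84.7 and 80.3 against 139, 136 and 137, a difference of -0.74 ± 0.09 without overlap. The median mitochondrial share of UMIs was 4.26%, 4.78% and 4.62% in the chemokine-high cells against 5.56%, 5.72% and 5.86%. Of 20 genes of the unfolded protein and amino acid stress responses, 6 were higher and 2 lower, the latter near the 10.4% of all genes. Without the marked barcodes 7 were higher, ATF5 being added, and 2 lower. CEBPD, a transcription factor of the acute phase response, stood at 12.4, 12.5 and 16.4 against 6.45, 6.34 and 8.31, a difference of 0.97 ± 0.08 without overlap, and the amino acid transporter SLC7A5 was lower, with a difference of -0.69 ± 0.14. Other genes with a large negative difference were LYPD2 (-1.99), ACOT2 (-1.74), WFDC18 (-2.31) and the replication factor PCLAF (-1.97), which DESeq2 did not call (adjusted p = 0.0865).

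**Figure D4:**
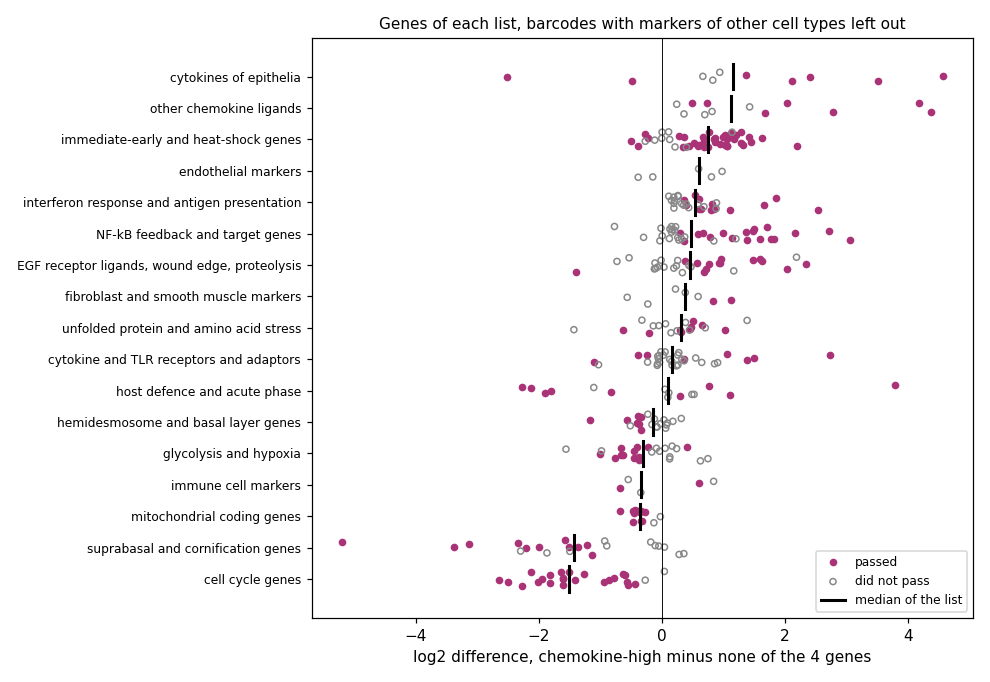
Log2 difference of every tested gene of the 17 lists, chemokine-high minus comparison cells without the marked barcodes, with filled points for genes that passed an adjusted p of 0.05 and a bar at the median of each list. Medians ran from -1.52 for cell cycle genes to 1.15 for cytokines, beside 0.01 for all genes tested.

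The differences did not begin at the limit of the rule. KRTDAP-low epithelial cells without the marked barcodes were placed in bands by the sum of the 4 genes, with 16707 cells at 0, 3125 above 0 and under 5 per 10000, 707 from 5 to under 10, 448 from 10 to under 20, 264 from 20 to under 40 and 102 at 40 or more. Only 9 cells of the last band came from calf 1. Along these bands the mean level of NFKBIA over the calves was 2.16, 3.18, 4.98, 5.74, 7.59 and 12.6 per 10000. Just outside the limit, at 5 to under 10, NFKBIA stood at 3.21, 5.29 and 6.44 in calves 1 to 3, and just inside, at 10 to under 20, at 3.03, 6.74 and 7.45, which overlapped. Mean TNFAIP3 was 0.0686, 0.188, 0.404, 0.444, 0.636 and 0.901, and mean IER3 was 5.47, 8.57, 13.7, 16, 21.8 and 26.1.

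Genes of differentiation and division ran the other way. Mean FABP5 was 6.69, 4.85, 1.83, 1.52, 0.968 and 1.06 per 10000 along the bands, mean KRT4 was 9.40, 6.40, 3.87, 2.32, 1.76 and 1.55, and mean TOP2A was 0.851, 0.767, 0.410, 0.168, 0.114 and 0.0587. Just outside the limit FABP5 stood at 1.98, 0.802 and 2.70 in the 3 calves, and just inside at 1.49, 0.821 and 2.27, which overlapped. The median depth of the bands was between 6818 and 9044 UMIs, with the deepest cells in the band above 0 and under 5. The band levels are a description, with no test.

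**Figure D5:**
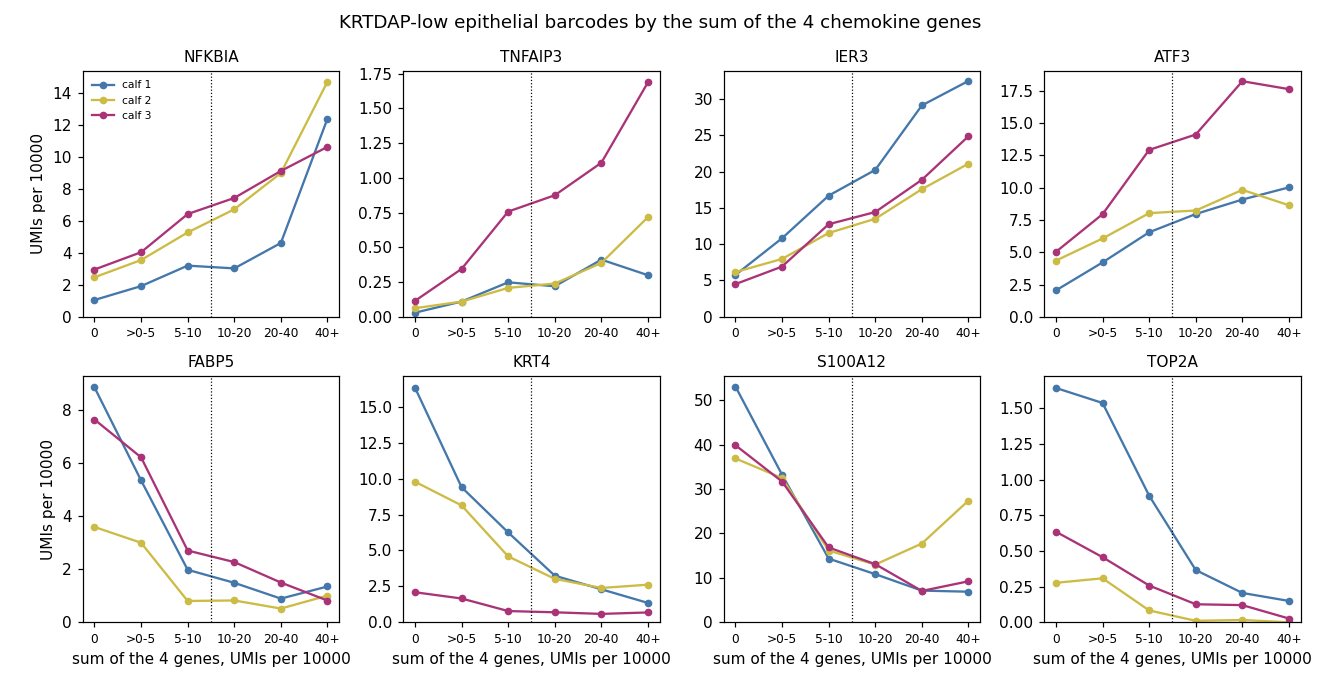
Levels of 8 genes in UMIs per 10000 of the summed cells of each calf, along bands of the sum of the 4 chemokine genes in KRTDAP-low epithelial cells without the marked barcodes, the dotted line marking the limit of 10 per 10000. NFKBIA, TNFAIP3, IER3 and ATF3 were higher and FABP5, KRT4 and TOP2A lower in the bands next to the limit on both sides than at 0, and S100A12 of calf 2 turned up again in the last bands.

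Within the 814 cells, those with a CCL20 UMI (13, 47 and 73 in calves 1 to 3) were set beside those without one (127, 211 and 343). This split and its genes were chosen after the values had been seen, and the values are a description. S100A12 stood at 31.3, 45.0 and 11.8 per 10000 with CCL20 and at 7.32, 9.13 and 10.4 without, and S100A8 at 2.79, 5.18 and 0.853 against 0.951, 0.948 and 0.629. KRT4 stood at 10.9, 5.74 and 0.902 against 2.01, 1.95 and 0.604. All 3 genes were higher beside CCL20 in each calf, with the gap small in calf 3. NFKBIA stood at 7.19, 12 and 11.2 against 3.48, 7.82 and 7.78, and TNFRSF6B at 0.587, 2.64 and 0.312 against 0.187, 0.170 and 0.187. The cells with CCL20 had median depths of 10646, 7344 and 7626 UMIs, and the part of depth in these values was not tested.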

How the data were processed

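Single-cell libraries of the rumen of 3 newborn calves were made with droplet 3′ chemistry. The authors aligned and counted the reads with Cell Ranger 3.1.0 (submitters' processing notes) and deposited a matrix of UMI counts per gene and barcode for each calf, which are raw counts. The limits on genes, UMIs and mitochondrial share follow the study's filter. From these counts the rule was applied, levels were given as UMIs per 10000, and UMIs were summed per calf and class. Cells are not replicates, so tests ran on these sums by edgeR 4.0.16 in R 4.3.3 (TMM, filterByExpr, quasi-likelihood, calf as a block, Benjamini-Hochberg, adjusted p under 0.05). The replicate number is the calf, so the pairing of the classes comes from the shared animal. The SE of a difference is its size over the square root of the F statistic. It uses the spread shared among genes, so it can be far smaller than the differences between calves. For CCL20 in the cells chosen by the CXC genes it was 0.14, and 0.81 with a robust prior. The fit was tested on simulated data. Alternatives were DESeq2 1.42.0, its size factors, no filter on low counts, no block, each calf left out, thinning to 2000 UMIs, other limits of the rule, other comparison cells, a mitochondrial limit of 20% and removal of doublets. A robust prior, a bias-adjusted dispersion and leaving out marked barcodes were added after the data had been seen.

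The caller Scrublet in scanpy 1.11.5 marked 0, 0 and 2 barcodes by its own threshold and so did not work, and the top scores, at the rate expected for the number of cells, were taken instead. Doublets were otherwise kept.

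Cells and gene lists were chosen with earlier results of these data known. Genes were named by rule: among symbols called in edgeR, moved alike in 3 of 3 calves and at 50 CPM or more in the higher class, the 15 with the highest and the 10 with the lowest difference, and of each of 17 lists up to 4 called genes and the uncalled gene with the highest level. The 15 highest and 10 lowest were also taken from the fit without marked barcodes, which was added after the data had been seen. Other genes of the lists that the text names, and KRT7 and KRT19, were picked after their values were seen. A test of whether the differences depend on KRTDAP was not run, since 1 chemokine-high cell had KRTDAP at 10 per 10000 or more. Intervals are exact Clopper-Pearson at 95% and cover counting error only.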

Additional observations from a re-analysis of the deposited data

Results flagged for a closer look

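Barcodes over the limit of 4000 genes were outside every comparison. Among 1361 keratin-positive barcodes of this kind, 15 (1.10%) met the chemokine and KRTDAP limits, 5 of 705 in calf 1, 0 of 147 in calf 2 and 10 of 509 in calf 3. They stood out because they lay in data that the comparisons did not use. Their shares of 0.71%, 0% and 1.96% in calves 1 to 3 were below the 3.06%, 3.04% and 5.45% of the kept epithelial cells.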

How the results depend on the processing

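Beside the 2194 genes reported, DESeq2 called 1054, thinning to 2000 UMIs 740 (408 higher and 332 lower), and leaving out 1 calf in turn 1229 to 1758. The fit without the replicate block called 0 genes, with 936 at an unadjusted p under 0.05, against 3367 with it. The other fits called 1528 to 2306 genes, the last without a filter on low counts (705 higher and 1601 lower), and every gene shared with the reported calls kept its sign. CCL20 in the cells chosen by the CXC genes was 6.0 without the replicate block (adjusted p = 0.0642), 5.85 with a robust prior (0.0852) and 5.83 with the bias-adjusted dispersion (0.0580, edgeR), and 4.96 to 6.36 when 1 calf was left out. GRO1, CXCL2 and CXCL3 in the cells chosen by CCL20 passed in all fits run. The mean share of 3.85% was 7.16% at a chemokine limit of 5, 1.73% at a limit of 20 and 5.28% after thinning, and 3.05% to 4.26% when 1 calf was left out.

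Of 85 named genes that passed, DESeq2 kept 74, the robust prior 82, and the fit without marked barcodes 66 of the 77 it tested. Without marked barcodes VIM was -0.35, PLVAP -0.39 and FCER1G -0.55 (log2). Among genes that did not pass, the sign turned for CD44 (-0.0139) and TNFRSF1A (-0.0242) without a filter, and for S100A9 without the block (-0.0230) and at a limit of 5 (-0.19). KRT10 turned to 0.00771 with DESeq2, 0.00526 with its size factors, 0.0213 with a mitochondrial limit of 20% and without doublets, 0.15 after thinning, 0.00258 against KRTDAP-low cells with none of the 4 genes, 0.0172 against all other KRTDAP-low cells, 0.0356 with the CXC choice and 0.0392 without marked barcodes. TYMS turned to 0.00791 with DESeq2, 0.0361 without doublets, 0.0363 at a limit of 5, 0.0152 with the CXC choice and 0.0372 without marked barcodes. With 1 calf left out, S100A9 ran from -0.12 to 0.25, KRT10 from -0.0603 to 0.0330, TYMS from -0.0647 to 0.0575 and ADM from -0.16 to 0.21. The causes were not tested. With 3 calves of 1 age, genes that vary between calves have p-values that lean on other genes, and genes of few UMIs were not detectable or not tested. The fit on KRTDAP and its alternatives were not run.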
